A study of Mus musculus with 29 samples.

Results

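The insulin-like growth factor (IGF) genes described here are 10 genes, namely the 2 ligands Igf1 and Igf2, the 2 receptors Igf1r and Igf2r, and the 6 binding proteins Igfbp2 to Igfbp7. They were taken by symbol from general knowledge of the family, with earlier results of these data known. Symbols were matched to the gene identifiers of the deposited table, which holds 56748 genes. All 10 were found, and 9 of them were among the 12353 genes with enough counts to be tested. Igf2 was not.

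RNA was sequenced from the aortic arch of mice, with 1 library per mouse and no pooled animals. Ercc1Δ/− mice carry 1 truncated and 1 null allele of Ercc1, which encodes a subunit of a DNA repair endonuclease, in every tissue. Their WT littermates (Ercc1 +/+) served as controls, and all mice were F1 hybrids of C57BL6J and FVB, housed singly and fed AIN93G pellets. With free access to food (ad libitum, AL) there were 5 WT and 5 Ercc1Δ/− mice of 6 weeks, and 4 WT and 4 Ercc1Δ/− mice of 22 weeks. On dietary restriction (DR), which began at 7 weeks of age in steps of 10% and reached 30% from 9 weeks, there were 5 WT and 5 Ercc1Δ/− mice of 22 weeks. Each group held both sexes.

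A further library of an AL-fed WT mouse of 22 weeks, sample 003, held 400410 counts on genes and was left out, as the study did. The other 28 held 921167 to 9616382 counts. Ercc1Δ/− libraries at 22 weeks held 921167 to 3855444 and WT libraries of that age 2660422 to 9616382. The 10 smooth muscle markers of the aortic wall were detected, at a sum of 66850 to 169100 normalized counts per sample. Ercc1 itself was lower in Ercc1Δ/− mice in all comparisons of genotype, with log2 fold changes of -1.41 at 6 weeks, -0.96 at 22 weeks on AL and -1.01 on DR (edgeR, adjusted p = 0.000336, 0.00274 and 0.00055).

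IGF-1 and IGF-2 are small secreted hormones related to insulin. Growth hormone drives the release of IGF-1 by the liver, but vessels, bone and other tissues make it too, and there it acts on the cells close by. IGF-1 receptor, a tyrosine kinase, passes the signal to the PI3K-AKT-mTOR and RAS-MAPK cascades and so promotes growth and survival, whereas the IGF-2 receptor carries IGF-2 to lysosomes for degradation. Binding proteins hold most IGF outside cells and are cleaved by proteases such as PAPP-A to free it. Reduced IGF-1 signalling is a known feature of Ercc1-deficient mice in the liver and in blood, and of restricted feeding. RNA of the vessel wall does not report the hormone in blood.

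The levels of the 10 genes differed widely. On a scale of normalized counts per kb of exons, averaged over the 28 samples, Igfbp7 was highest with 1091 ± 173 (SD), followed by Igfbp4 with 573 ± 101 and Igfbp5 with 559 ± 148. Igfbp4 was above Igfbp5 in only 15 of 28 samples, so the order of this pair was not resolved. Igfbp6 followed with 201 ± 94.9, Igfbp2 with 76.7 ± 45.8 and Igf2r with 58.7 ± 11.0, and Igfbp2 was above Igf2r in 19 of 28 samples. Igf1 with 24.2 ± 11.2 and Igf1r with 22.4 ± 4.26 could not be ordered either, since Igf1 was higher in 15 of 28 samples. Igfbp3 with 7.29 ± 5.00 and Igf2 with 0.217 ± 0.311 were lowest. Among all tested genes the mean count of Igfbp7 stood at percentile 99.5, that of Igfbp5 at 99.1 and that of Igfbp4 at 98.7, so that these binding proteins were among the most abundant transcripts of the tissue. Reads were counted over whole genes, introns included, which can raise the level of genes with long introns on this scale, such as Igf1r with a span of 281.9 kb.

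**Figure D1:**
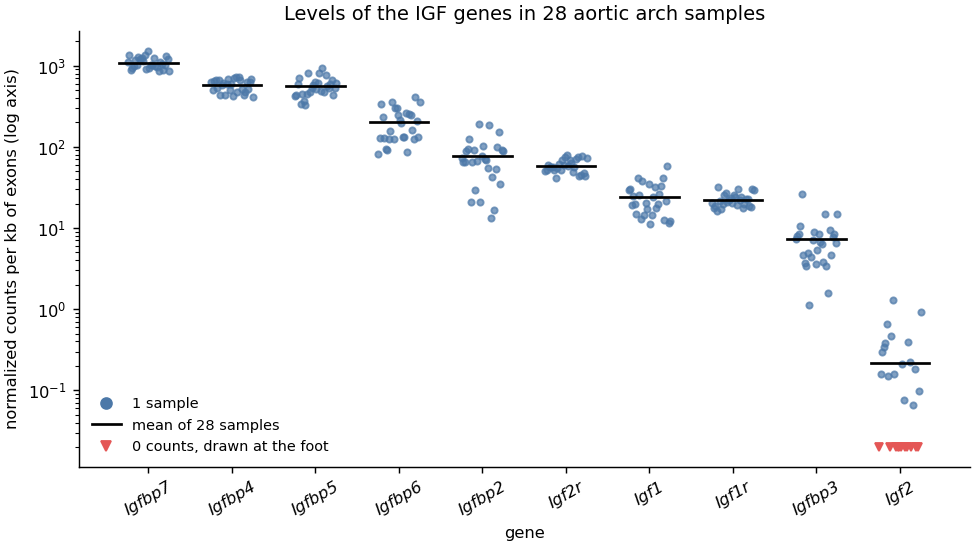
Normalized counts per kb of exons (log axis) of the 10 IGF genes, 1 point for each of the 28 samples, with the mean as a line and samples without a count as triangles at the foot. Binding proteins take the 5 highest places, and Igf2 was at 0 counts in 11 samples.

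The 7 comparisons of 2 groups were made with edgeR's quasi-likelihood F test across all 12353 genes, with sex in the model. To be called, a gene needed a p of 0.05 or less after Benjamini-Hochberg adjustment and a fold change of 1.2 or more. Over 63 tests of a gene in a comparison there were 5 calls, on 4 genes. These were Igf1 and Igfbp2 with age in Ercc1Δ/− mice, Igfbp4 and Igfbp7 between genotypes on DR, and Igfbp4 with DR in Ercc1Δ/− mice. edgeR made no call for Igf1r, Igf2r, Igfbp3, Igfbp5 or Igfbp6. Several comparisons use the same samples, such as the AL-fed Ercc1Δ/− mice of 22 weeks, so their values are not independent of each other.

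Between genotypes few of the genes were called. At 6 weeks edgeR called 0 of the 9 genes (1.71% of all tested genes were called), 1 had an unadjusted p under 0.05 (12.8% of all genes), and DESeq2 also called 0. At 22 weeks on AL edgeR called 0 of 9 while 12.0% of all genes were called, again with 1 unadjusted p under 0.05 (26.0% of all genes) and 0 calls by DESeq2. There 3 of the 9 fold changes were negative, and their median was 0.27 (log2) beside 0.03 over all tested genes. On DR 2 of 9 genes were called, both lower in Ercc1Δ/− mice, where 13.0% of all genes were called and 7.03% were called lower. The median of the 9 was 0.16 there, beside 0.0038 over all genes.

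With age, 0 of 9 genes were called by edgeR in WT mice (0.235% of all genes), although 5 had an unadjusted p under 0.05, as 8.65% of all genes did, and DESeq2 called 1, Igf1. In Ercc1Δ/− mice 2 of 9 were called with age (4.66% of all genes), 1 in each direction. DR called 0 of 9 genes in WT mice by edgeR (1.30% of all genes), with 2 unadjusted p-values under 0.05 (12.8% of all genes) and 0 calls by DESeq2. In Ercc1Δ/− mice DR called 1 of 9 (1.64% of all genes). The median fold change with DR was -0.02 in WT and -0.20 in Ercc1Δ/− mice, beside 0.01 and 0.00 over all genes.

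**Figure D2:**
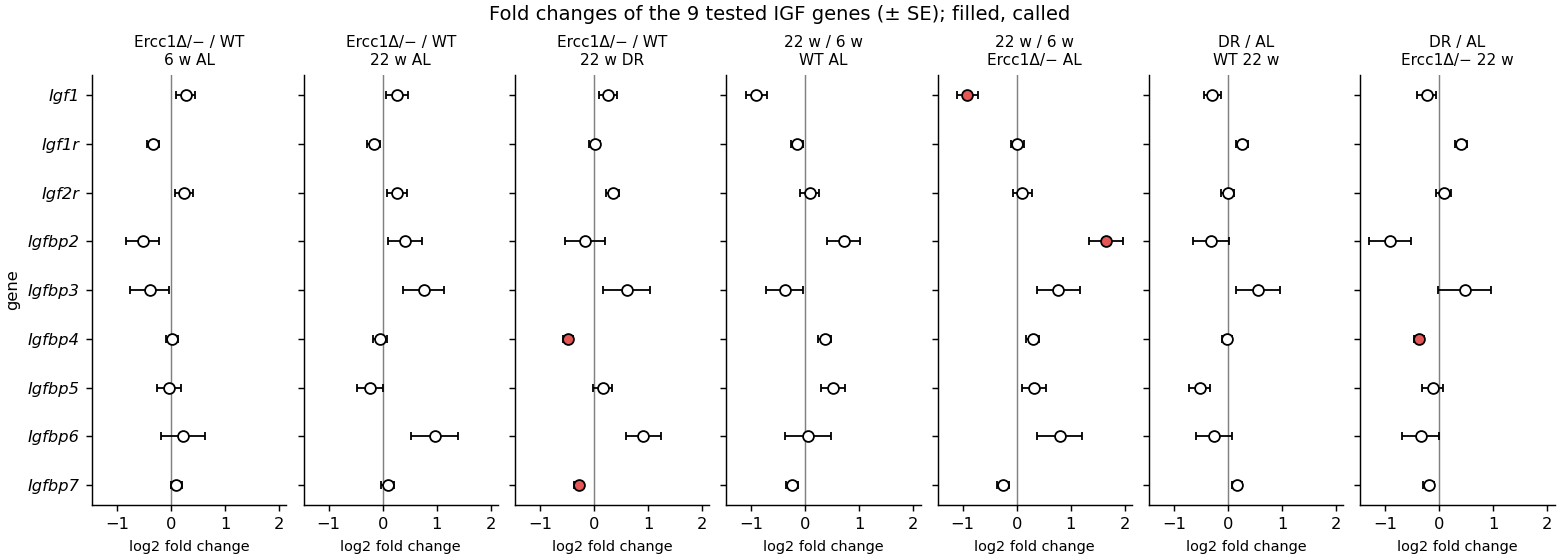
Log2 fold changes (± SE) of the 9 tested IGF genes in the 7 comparisons of 2 groups, with called genes filled. The filled points are Igfbp4 and Igfbp7 between genotypes on DR, Igf1 and Igfbp2 with age in Ercc1Δ/− mice, and Igfbp4 with DR in Ercc1Δ/− mice.

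Igf1 (chr10:87693642-87772904, plus strand, GRCm39) encodes the main IGF ligand after birth. In AL-fed Ercc1Δ/− mice its normalized counts were 308, 332, 356.5, 419 and 593 at 6 weeks and 198, 206.5, 219 and 255 at 22 weeks. Every older mouse lay below every younger one, as groups stood apart for 6.78% of all genes in that comparison, and Igf1 fell by 0.92 on the log2 scale (SE 0.20, edgeR, adjusted p = 0.0101). WT mice had 259, 304, 331, 386 and 419 normalized counts at 6 weeks and 130, 149, 180 and 244 at 22 weeks. Their ranges did not overlap either (3.85% of all genes), but the fold change of -0.91 (SE 0.19) missed the threshold (edgeR, adjusted p = 0.0568). The exact permutation test of the means gave p = 0.0159 in each genotype, where 4 samples against 5 allow 0.00794. The difference between the genotypes in the effect of age was -0.0039 (SE 0.28, edgeR, unadjusted p = 0.989). In WT mice the call was made by 4 of 8 other settings of the analysis and without sample 018 (adjusted p = 0.0396), and in Ercc1Δ/− mice it was lost without sample 004 (adjusted p = 0.0515) and after thinning all samples to the depth of the shallowest (0.112).

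Genotype and DR made no call for Igf1. Its means were 340 ± 63.8 (SD, n = 5) in WT and 402 ± 115 (n = 5) in Ercc1Δ/− mice at 6 weeks, 176 ± 49.8 (n = 4) and 220 ± 25.2 (n = 4) at 22 weeks on AL, and 150 ± 31.0 (n = 5) and 177 ± 60.8 (n = 5) on DR. The Ercc1Δ/− mean was the higher one at each age and diet, with fold changes of 0.27, 0.27 and 0.26 (edgeR, adjusted p = 0.591, 0.456 and 0.329). DR had fold changes of -0.29 (SE 0.16) in WT and -0.23 (SE 0.18) in Ercc1Δ/− mice (edgeR, adjusted p = 0.454 and 0.574). A lower local Igf1 in the mutant was therefore not seen in these samples, and the fitted differences lay within the spread between mice.

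The sum of fibroblast markers fell with age, as Igf1 did. All 12 markers on the list were tested and none was at 0. Their sum was 80930 to 107500 normalized counts in WT mice of 6 weeks and 52590 to 70570 at 22 weeks, and 92610 to 155600 and 42050 to 50360 in Ercc1Δ/− mice. On DR it was 46460 to 54430 in WT and 35920 to 51890 in Ercc1Δ/− mice. Between genotypes at 22 weeks on AL the sum was thus lower in Ercc1Δ/− mice, but single markers went both ways. Of the 12, 6 were called there (12.0% of all genes). Col1a1, Col1a2, Col3a1 and Pi16 were lower, whereas Ly6a (log2 fold change 0.83) and Cd34 (0.45) were higher. The mean of Igf1 was higher in Ercc1Δ/− mice there (220 against 176, not called). With age 2 of the 12, Col3a1 and Col1a2, genes of fibrillar collagen, fell in WT mice, where 0.235% of all genes were called. In Ercc1Δ/− mice 5 fell, these collagen genes among them, where 4.66% of all genes were called. The 1 that rose there was Ly6a (log2 fold change 0.54, edgeR, adjusted p = 0.0182). The part of fibroblasts in the change of Igf1 was not tested, and in bulk tissue fewer cells of a type and less RNA per cell cannot be told apart.

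Igf2 (chr7:142204503-142220694, minus strand) encodes the fetal growth factor of the family. It had 0 to 6 reads in a sample and 32 over the 28 samples. At most 8.04 normalized counts were reached, in 1 WT mouse of 6 weeks, and 11 samples held none. The group means ran from 0.381 to 2.24 normalized counts, too low to be tested. Of its 6162 exon bases 3599 also belong to Gm49394, an annotated gene on the same strand that was at 0 counts, and how reads shared by 2 genes were assigned is not given in the sources used here. The level of Igf2 is therefore limited by that assignment.

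Of the receptors, Igf1r (chr7:67601518-67883416, plus strand), the signalling receptor of both ligands, had means of 475 ± 86.4 (SD, n = 5) in WT and 368 ± 29.4 (n = 5) in Ercc1Δ/− mice at 6 weeks. The fold change of -0.34 (SE 0.11) was not called (edgeR, adjusted p = 0.15). At 22 weeks on AL the means were 422 ± 29.3 (n = 4) and 374 ± 49.9 (n = 4), and on DR 493 ± 62.6 (n = 5) and 504 ± 110 (n = 5). Its highest means were thus those of the 2 DR groups. In Ercc1Δ/− mice the values were 320.5, 363, 371 and 441 on AL and 349, 456.5, 501, 587 and 626 on DR. In total 4 of the 5 restricted mice lay above all 4 AL-fed mice and 1 lay among them. With DR the fold changes were 0.39 (SE 0.11) in Ercc1Δ/− mice and 0.26 (SE 0.11) in WT mice, and neither was called (edgeR, adjusted p = 0.0783 and 0.276). Without sample 022, the lowest restricted Ercc1Δ/− mouse, that gene was called (adjusted p = 0.0157). Igf1r shares 1247 exon bases with Pgpep1l on the opposite strand, a gene with 529 counts over all 29 samples.

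Igf2r (chr17:12901293-12988614, minus strand), which clears IGF-2 and sorts lysosomal enzymes, had higher means in Ercc1Δ/− than in WT mice at each age and diet. These were 563 ± 124 against 487 ± 94.4 at 6 weeks (n = 5 each), 614 ± 94.2 against 503 ± 98.2 at 22 weeks on AL (n = 4 each) and 635 ± 89.4 against 504 ± 54.1 on DR (n = 5 each). None was called (edgeR, adjusted p = 0.606, 0.376 and 0.0744). Of these fold changes the one on DR was the largest at 0.34 (SE 0.12), and it was called when sample 006 was left out (adjusted p = 0.0362) or when only the 2 compared groups were fitted (adjusted p = 0.0466). Airn, an RNA transcribed in the opposite sense within Igf2r, had group means of 26.5 to 45.3 normalized counts, and without the strand setting their reads cannot be told apart. Age and DR gave fold changes from -0.01 to 0.11.

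Igfbp2 (chr1:72863606-72891634, plus strand) encodes a binding protein that is abundant in blood and is known to rise when IGF-1 or insulin is low. In AL-fed Ercc1Δ/− mice its normalized counts were 34.9, 42.8, 72.0, 135 and 160 at 6 weeks and 135, 184, 316 and 402 at 22 weeks. It rose by 1.65 on the log2 scale (SE 0.32, edgeR, adjusted p = 0.00636), although the ranges overlapped at their edges. In WT mice the values were 60.3, 110, 114, 135 and 152 at 6 weeks and 141, 141, 206 and 388 at 22 weeks, with a fold change of 0.71 (SE 0.30) that was not called (edgeR, adjusted p = 0.508). The difference in the effect of age between genotypes was 0.95 (SE 0.44, edgeR, unadjusted p = 0.0489, adjusted p = 0.438). The call in Ercc1Δ/− mice was kept whichever single sample was left out and was lost without a term for sex (adjusted p = 0.0993) and after thinning (0.0751).

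On DR the means of Igfbp2 were 161 ± 84.6 (SD, n = 5) in WT and 146 ± 75.4 (n = 5) in Ercc1Δ/− mice, against 219 ± 117 (n = 4) and 259 ± 122 (n = 4) on AL. The fold change with DR was -0.91 (SE 0.39) in Ercc1Δ/− mice and -0.31 (SE 0.34) in WT mice (edgeR, adjusted p = 0.287 and 0.766). With only the 2 compared groups in the fit, the change in Ercc1Δ/− mice was called, at -0.95 (adjusted p = 0.00526).

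Igfbp2 also differed between the sexes. A comparison of males and females within the 6 groups, chosen after these values were seen, put males 2.15-fold higher (edgeR, adjusted p = 0.0203). Igfbp2 was the 1 called among the 9 genes, whereas 0.186% of all genes were called. Its male mean was above its female mean in 6 of 6 groups, with 134 against 85.0 in WT and 122 against 38.9 in Ercc1Δ/− mice at 6 weeks, 245 against 141 and 359 against 160 at 22 weeks on AL, and 211 against 87.4 and 199 against 66.0 on DR. The ranges of the sexes were apart in all groups but AL-fed WT mice of 22 weeks, which held 1 female. Females and males numbered 1 to 3 per group. Igfbp2 was called without any one of the 28 samples (highest adjusted p = 0.0492). For Igf1 the male mean was lower in 5 of 6 groups, with a fold change of -0.33 (SE 0.11) that was not called (edgeR, adjusted p = 0.379), and Igfbp7 had one of 0.21 (SE 0.06, adjusted p = 0.155).

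**Figure D3:**
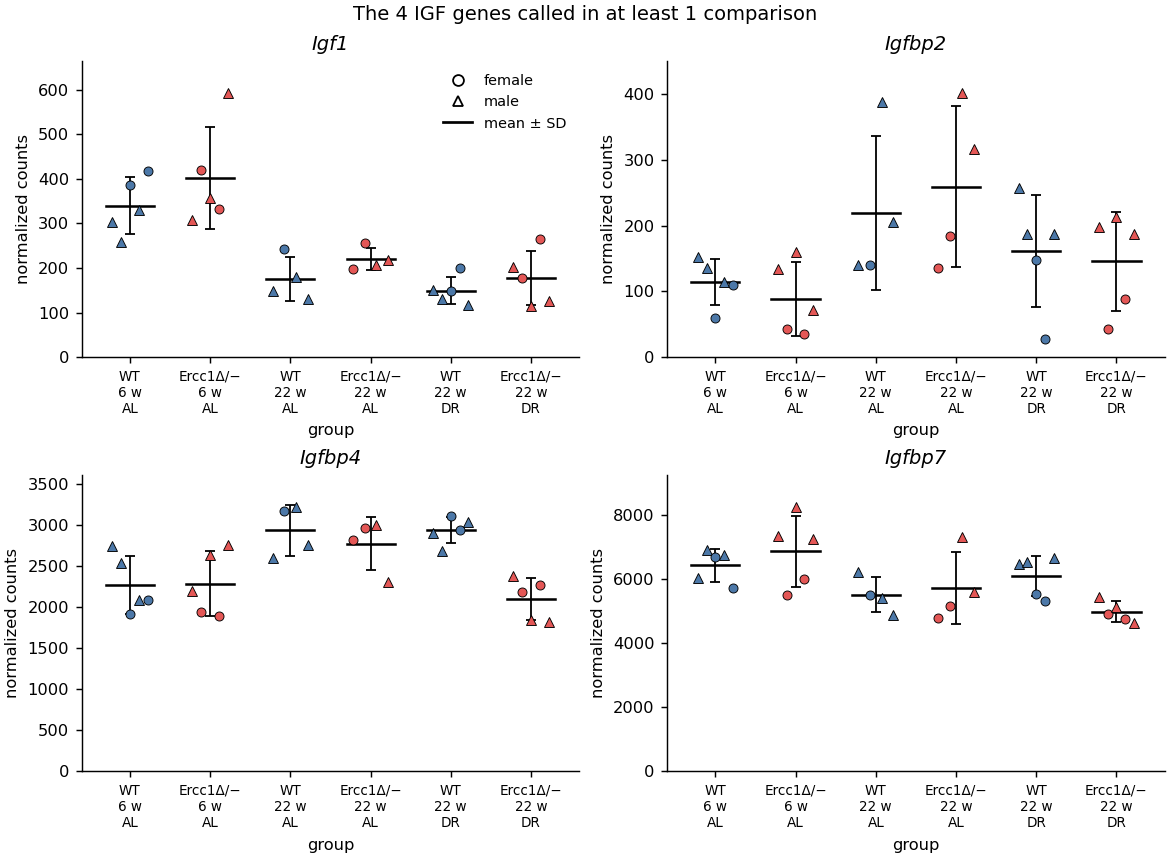
Normalized counts of Igf1, Igfbp2, Igfbp4 and Igfbp7 by group, 1 point per mouse (circles, females and triangles, males), with the mean and SD as bars. Igf1 was lower at 22 than at 6 weeks in both genotypes, and the male mean of Igfbp2 was above the female mean in 6 of 6 groups. Igfbp4 in restricted Ercc1Δ/− mice lay below restricted WT mice without overlap.

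Igfbp4 (chr11:98932064-98945218, plus strand) encodes a binding protein that mostly inhibits IGF and is the main substrate of PAPP-A. On DR its normalized counts were 2691, 2912, 2947, 3043 and 3114 in WT and 1816, 1850, 2188, 2277 and 2377 in Ercc1Δ/− mice. All Ercc1Δ/− mice lay below all WT mice, a separation shown by 8.27% of all genes, and Igfbp4 was lower by a log2 fold change of -0.49 (SE 0.09, edgeR, adjusted p = 0.000459). The two-sided exact permutation test gave p = 0.00794, the smallest that 5 samples against 5 allow. This call was kept in 8 of 8 other settings of the analysis and in 10 of 10 fits that left out 1 sample. AL-fed mice of 22 weeks had 2597, 2763, 3170 and 3226 normalized counts in WT and 2304, 2824, 2972 and 3002 in Ercc1Δ/− mice, with a fold change of -0.05 (SE 0.13, edgeR, adjusted p = 0.857). At 6 weeks the means were 2275 in WT and 2289 in Ercc1Δ/− mice.

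In Ercc1Δ/− mice Igfbp4 also fell with DR, by 0.38 on the log2 scale (SE 0.09, edgeR, adjusted p = 0.0352). The lowest AL-fed mouse, at 2304, lay between the restricted ones. The call was lost when any one of the samples 004, 005 and 013 (AL) or 014, 016 and 029 (DR) was left out, with adjusted p up to 0.113, with sample 003 added (adjusted p = 0.0633), with all 6 groups or only the compared groups in the fit (0.0749 and 0.124) and after thinning (0.605). In WT mice the fold change with DR was -0.02 (SE 0.09, edgeR, adjusted p = 0.96). The difference in the effect of DR between genotypes was -0.36 (SE 0.13), with an unadjusted p of 0.0107 in edgeR and an adjusted p of 0.404 over all genes. It is thus not shown that DR acted on Igfbp4 in 1 genotype alone. With age, fold changes of 0.36 (SE 0.12) in WT and 0.30 (SE 0.12) in Ercc1Δ/− mice were not called (edgeR, adjusted p = 0.323 and 0.203).

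Igfbp7 (chr5:77493130-77555931, minus strand) encodes a secreted protein of the vessel wall that binds IGF only weakly. On DR it had 5296, 5515, 6480, 6513 and 6642 normalized counts in WT and 4624, 4738, 4912, 5136 and 5448 in Ercc1Δ/− mice. The highest Ercc1Δ/− mouse exceeded the lowest WT mouse, and the fold change was -0.29 (SE 0.09, edgeR, adjusted p = 0.0367). That call was lost without any one of the samples 006, 007, 010, 016, 017, 028 and 029 (adjusted p up to 0.111). It was also lost with sample 003 added (adjusted p = 0.0616), without a term for sex (0.0772) and after thinning (0.402). On AL the Ercc1Δ/− mean of 5705 was close to the WT mean of 5500 at 22 weeks, with a fold change of 0.09 (SE 0.12, edgeR, adjusted p = 0.659). These Ercc1Δ/− mice had 4770, 5154, 5584 and 7314 normalized counts, the highest in sample 013. Skeletal muscle markers summed to 814.8 normalized counts in sample 013 and to 12.4 to 23.45 in the others of its group. Their part was not tested. As for Igfbp4, the difference in the effect of DR between genotypes was -0.36 (SE 0.14, edgeR, unadjusted p = 0.0128, adjusted p = 0.421). Part of the exons of Igfbp7, 747 bases, overlap Polr2b on the opposite strand, and the strand setting of the counting is not given in the sources used here.

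Markers of several cell types also differed between genotypes on DR, where 13.0% of all genes were called. Of the 10 smooth muscle markers 9 were lower in Ercc1Δ/− mice on DR, with a sum of 93640 to 102100 normalized counts against 130900 to 169100 in WT mice. On AL at 22 weeks 8 of the 10 were lower as well (12.0% of all genes called), at 66850 to 102600 against 127800 to 151000. At 6 weeks the sum was 91960 to 129300 in Ercc1Δ/− and 126300 to 161800 in WT mice. No marker on that list was at 0. Endothelial markers were higher in restricted Ercc1Δ/− mice for 5 of 10, with a sum of 3636 to 5946 against 1938 to 3864. Macrophage markers were higher for 5 of 11 tested, with sums of 1722 to 2421 against 1237 to 1614 that did not overlap. Of 12 fibroblast markers 3 were higher and 3 lower. Heart muscle markers were called higher for 1 of 8 tested, with sums of 968 to 2281 against 544 to 938 that did not overlap. The part of these cell types in the lower Igfbp4 and Igfbp7 was not tested.

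The sequence before the transcription start is shown for the called binding proteins, of which 2 were lower in restricted Ercc1Δ/− than restricted WT mice. It was taken from RefSeq promoters, a table on build GRCm38.p6 in which all 10 genes were found, and placed on GRCm39 by exact match. Each stretch begins 250 bases before the RefSeq start and ends where exons of the gene begin in the annotation. They are chr1:72863389-72863605 (plus strand) for Igfbp2, chr11:98931820-98932063 (plus strand) for Igfbp4 and chr5:77555932-77556142 (minus strand) for Igfbp7. Capitals mark matches on either strand to TATAAA (the TATA box), GGGCGG (a GC box), CACGTG (an E-box) and GTAAACA (bound by FOXO factors).
Igfbp2: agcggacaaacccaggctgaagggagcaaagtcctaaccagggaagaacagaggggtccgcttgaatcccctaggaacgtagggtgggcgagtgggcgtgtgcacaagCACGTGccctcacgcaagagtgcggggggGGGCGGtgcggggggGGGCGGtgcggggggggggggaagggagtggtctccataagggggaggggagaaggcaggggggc
Igfbp4: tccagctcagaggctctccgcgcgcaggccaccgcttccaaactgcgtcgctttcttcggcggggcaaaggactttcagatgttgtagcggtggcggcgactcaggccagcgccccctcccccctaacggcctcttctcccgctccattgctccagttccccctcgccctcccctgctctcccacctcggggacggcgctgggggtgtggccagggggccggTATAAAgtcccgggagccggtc
Igfbp7: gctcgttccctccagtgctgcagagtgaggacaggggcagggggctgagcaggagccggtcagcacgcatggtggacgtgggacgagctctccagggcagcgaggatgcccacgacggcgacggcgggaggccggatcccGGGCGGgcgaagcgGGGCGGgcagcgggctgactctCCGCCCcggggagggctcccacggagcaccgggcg
The Igfbp4 stretch held 1 TATAAA, which 12.2% of 32817 promoters held over the same bases. GGGCGG or its reverse complement matched 2 times in Igfbp2 and 3 times in Igfbp7, as it did at least once in 28.0% and 26.9% of promoters. Igfbp2 also held 1 CACGTG (4.92% of promoters). GTAAACA was found in none of the 3 stretches (3.10% of promoters or fewer). The Igfbp4 stretch also overlaps an exon of the annotated RNA gene Gm72292. Igfbp4 and Igfbp7 shared none of the 4 motifs over these bases. GC content was 68.2%, 68.4% and 74.9%, above the median of 51.7% to 52.1% over all promoters.

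Igfbp5 and Igfbp6 were called by edgeR in no comparison. Igfbp5 (chr1:72897091-72914043, minus strand), the next gene to Igfbp2 and in opposite orientation, encodes a binding protein that also attaches to extracellular matrix. Its means were 3106 ± 1117 (SD, n = 5) and 2910 ± 633 (n = 5) in WT and Ercc1Δ/− mice at 6 weeks, 4219 ± 1204 (n = 4) and 3750 ± 461 (n = 4) at 22 weeks on AL, and 3014 ± 408 (n = 5) and 3382 ± 961 (n = 5) on DR. The largest fold changes were -0.53 (SE 0.19) with DR and 0.51 (SE 0.23) with age, both in WT mice (edgeR, adjusted p = 0.235 and 0.54).

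Igfbp6 (chr15:102052697-102057953, plus strand) encodes a binding protein that prefers IGF-2. At 22 weeks on AL it had 170, 173, 185 and 361.5 normalized counts in WT mice and 323, 419, 468 and 567 in Ercc1Δ/− mice. On DR the values were 117.5, 129, 182, 218 and 270 in WT and 176.5, 295, 350.5, 409 and 495 in Ercc1Δ/− mice. On AL 3 of 4 and on DR 4 of 5 Ercc1Δ/− mice lay above all WT mice, and the fold changes were 0.97 (SE 0.44) and 0.91 (SE 0.33). Neither was called by edgeR (adjusted p = 0.177 and 0.0875), while DESeq2 called the one on DR (adjusted p = 0.0344). Without sample 006 or sample 017 the gene was called on DR (adjusted p = 0.0398 and 0.04).

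Mesothelial markers, which stand for the lining around the vessel, were set beside Igfbp6. The 7 markers summed to 5.29 to 1322 normalized counts in WT and 62.4 to 613 in Ercc1Δ/− mice at 6 weeks, 46.6 to 638 and 611 to 1021 at 22 weeks on AL, and 141 to 493 and 129 to 1250 on DR, with none at 0 throughout. Of 6 tested markers 0 were called between genotypes on AL at 22 weeks (0 at an unadjusted p under 0.05, and 0 by DESeq2) and 1 was called on DR. The WT sample of 6 weeks with the highest Igfbp6, at 498, had the highest mesothelial sum of 1322, and the one with the lowest Igfbp6, at 111, the lowest sum of 5.29. That last sample, 001, was unusual in its nerve and glia markers, which summed to 2512 normalized counts (group median 104.5). In AL-fed WT mice Igfbp6 rose with the sum from mouse to mouse at 6 weeks and at 22 weeks. In the other groups the sum did not fully order Igfbp6. At 6 weeks Ercc1Δ/− sample 008 (sum 98.7) had less Igfbp6 than sample 002 (62.4), at 127 against 178. On DR Ercc1Δ/− sample 022 (sum 907) had less than sample 014 (622), at 350.5 against 409. Apart from these pairs, the order was kept in those Ercc1Δ/− groups. Sample 005 had the lowest Igfbp6 of AL-fed Ercc1Δ/− mice of 22 weeks, at 323, beside a sum of 951. Restricted WT sample 010 had the lowest sum of its group, 141, with Igfbp6 at 218. The part of mesothelial cells in the level of Igfbp6 was not tested.

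**Figure D4:**
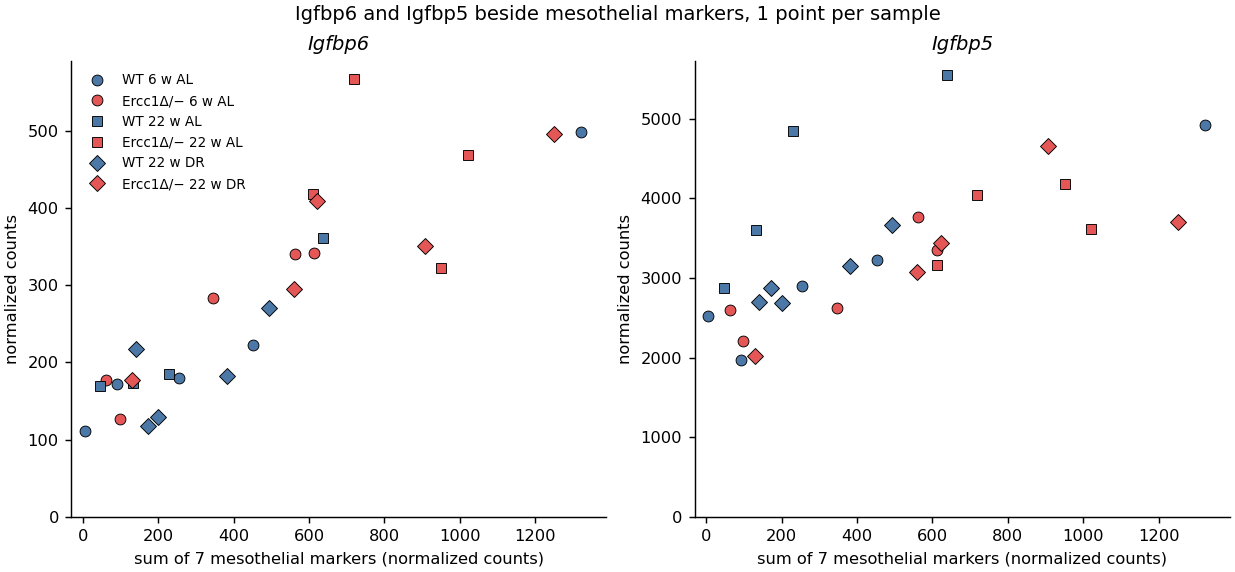
Normalized counts of Igfbp6 and Igfbp5 against the summed normalized counts of 7 mesothelial markers, 1 point per sample, with the group shown by colour and shape. The sample with the lowest mesothelial sum, 5.29 in sample 001, had the lowest Igfbp6, at 111 normalized counts. The one with the highest sum, 1322, had Igfbp6 at 498, and Igfbp5 ran from 1970 to 5548.

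Igfbp3 (chr11:7156086-7164179, minus strand) encodes the main carrier of IGF-1 in blood. It rested on 1 to 82 reads per sample, so that single values were imprecise. At 22 weeks on AL it had 13.7, 15.5, 16.3 and 23.95 normalized counts in WT and 25.1, 27.4, 29.8 and 37.8 in Ercc1Δ/− mice. The groups did not overlap (exact permutation test, p = 0.0286, the smallest that 4 against 4 allow), but the fold change of 0.76 (SE 0.38) was not called (edgeR, adjusted p = 0.218). It was the 1 gene of the 9 whose groups were apart in that comparison, beside 18.6% of all genes. On DR the values ran from 16.7 to 52.8 in WT and from 12.3 to 94.1 in Ercc1Δ/− mice.

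**Figure D5:**
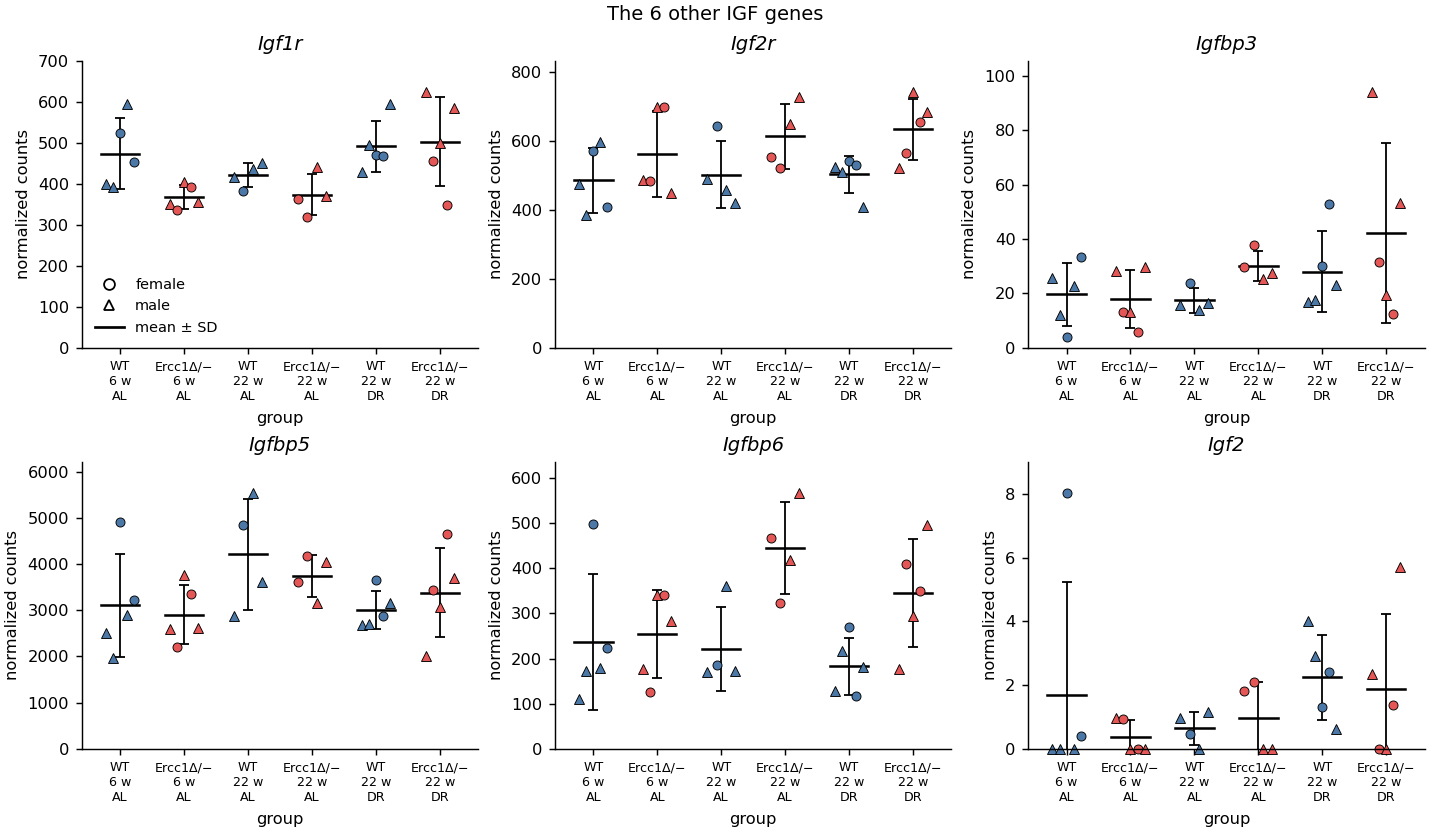
Normalized counts of Igf1r, Igf2r, Igfbp3, Igfbp5, Igfbp6 and Igf2 by group, 1 point per mouse (circles, females and triangles, males), with the mean and SD as bars. The Ercc1Δ/− values of Igfbp6 were mostly above those of WT mice at 22 weeks, and Igf2 stayed at 8.04 or below.

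Whether the genotype changed the effect of age or diet was tested by interaction terms. For age edgeR called 0 of 9 genes (0.842% of all genes), with 2 unadjusted p-values under 0.05, Igfbp2 and Igfbp3 (11.4% of all genes), and 0 calls by DESeq2. For diet it called 0 of 9 (0.0971% of all genes), with 2 unadjusted p-values under 0.05, those of Igfbp4 and Igfbp7 (8.71% of all genes), and 0 calls by DESeq2.

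Across the 28 samples the genes most like each IGF gene in log2 CPM were listed, as a description over samples that share groups and depth. Igf1 followed Rcn1 (Pearson r 0.908), Ctsk (0.841), which encodes a protease that degrades collagen, and Ppic (0.837). Igf1r was nearest to Camta1 (0.825), Hip1 (0.789) and Tfdp2 (0.782), and Igf2r to Appl2 (0.693), Tbl1x (0.691) and Neat1 (0.684). Igfbp6 was nearest to Ezr (0.896), Chst4 (0.887) and the mesothelial marker Krt19 (0.879), and Igfbp5 to Aldh1a2 (0.783), Ezr (0.738) and the mesothelial marker Lrrn4 (0.736). Igfbp2 was nearest to Uchl1 (0.754), Tprg1l (0.734) and Wfikkn2 (0.717). For Igfbp3 the nearest were Cnppd1 (0.770), Eif6 (0.761) and Pdcd2 (0.757). Igfbp4 had no gene above Dnaja4 (0.676), followed by Plac9 (0.670) and Gng7 (0.669). Igfbp7 was nearest to Adamts2 (0.781), Chst2 (0.747) and Meg3 (0.730).

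Of 117 other genes around the IGF axis, on 8 lists, 104 were tested. At 22 weeks on AL 9 were called between genotypes, 3 higher and 6 lower in Ercc1Δ/− mice (8.65%, against 12.0% of all genes). On DR 13 were called, 6 higher and 7 lower (12.5%, against 13.0%), and at 6 weeks 1, Irs2, an adaptor of the insulin and IGF-1 receptors, was lower (log2 fold change -0.95, edgeR, adjusted p = 0.00529). With age 6 were called in Ercc1Δ/− mice, 1 higher and 5 lower, and 0 by edgeR in WT mice (10 at an unadjusted p under 0.05, and 0 by DESeq2). The share in Ercc1Δ/− mice was 5.77%, against 4.66% of all genes. DR called 1 in WT mice (0.962%, against 1.30%) and 4 in Ercc1Δ/− mice (3.85%, against 1.64%), where DESeq2 called 9.

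Among the 8 tested genes that govern IGF availability, Htra1, a secreted protease, was the 1 called at 22 weeks on AL. Its means were 2808 ± 66.0 (SD, n = 4) in WT and 2049 ± 131 (n = 4) in Ercc1Δ/− mice on AL, and 2157 ± 305 (n = 5) and 1571 ± 215 (n = 5) on DR. It was lower in Ercc1Δ/− mice on AL (log2 fold change -0.41, SE 0.10, edgeR, adjusted p = 0.0102) and fell with DR by 0.37 in WT and by 0.39 in Ercc1Δ/− mice (adjusted p = 0.0448 and 0.0381). Igfbp1, the binding protein most responsive to fasting in liver, was at 0 counts in all 28 samples. Pappa and Pappa2, the proteases of Igfbp4 and Igfbp5, had group means of 5.23 to 17.3 and 9.00 to 13.9 normalized counts.

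Growth hormone signalling had 1 of 8 genes called at 22 weeks on AL, Ptpn6, a phosphatase of blood cells, which was higher in Ercc1Δ/− mice (log2 fold change 1.18, SE 0.33, edgeR, adjusted p = 0.0206). Macrophage markers, 11 of 12 tested, had a sum of 1939 to 3432 in these mice and 1353 to 1783 in WT mice. Of the 11 tested, 7 were called in this comparison (12.0% of all genes). Mertk among them was lower (log2 fold change -0.51, edgeR, adjusted p = 0.0102), and the others called were higher. The part of macrophages was not tested. Ghr, the growth hormone receptor, had means of 281 to 359 normalized counts over the 6 groups.

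Downstream of the receptor few genes were called at 22 weeks on AL, where 12.0% of all genes were called. In the RAS-MAPK list 3 of 20 were lower in Ercc1Δ/− mice, namely Prkacb (log2 fold change -0.49), Srf (-0.65), a transcription factor of muscle genes, and Rras (-0.33), with adjusted p of 0.00161, 0.00632 and 0.0133 by edgeR. Prkacb encodes a catalytic subunit of protein kinase A. In the same comparison 8 of the 10 smooth muscle markers were lower, and their part was not tested. In the PI3K-AKT-mTOR list 1 of 23 was lower, Rptor (-0.49), a subunit of mTOR complex 1, and with DR in Ercc1Δ/− mice 1 rose, Tsc1 (0.69), an inhibitor of that complex (edgeR, adjusted p = 0.0115 and 0.00881). Among 18 FOXO factors and targets, Gadd45a (1.54), a DNA damage response gene, and Bcl2l11 (1.04), which promotes cell death, were higher and Fbxo32 (-0.61), a ubiquitin ligase, was lower in Ercc1Δ/− mice (edgeR, adjusted p = 0.00106, 0.0399 and 0.00176). With DR in Ercc1Δ/− mice Fbxo32 (0.63) and Ccng2 (0.87), a cyclin relative, rose (edgeR, adjusted p = 0.00176 and 0.0291). Fbxo32 had means of 604 ± 24.4 (SD, n = 4) in WT and 403 ± 38.2 (n = 4) in Ercc1Δ/− mice on AL, and 649 ± 87.0 (n = 5) and 639 ± 99.0 (n = 5) on DR.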

How the data were processed

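After trimming, the authors aligned reads to GRCm39 with STAR 2.7.10a, removed duplicates by unique molecular identifiers with UMI-tools 1.1.2 and counted reads over whole genes with HTSeq 2.0.2. They deposited whole-number counts per gene without normalization. Lines that name no gene held 12.6% to 18.7% of reads and were left out. To be tested, a gene needed over 10 counts in over 10 of 28 samples. Tests were run by edgeR 4.0.16 (quasi-likelihood F test, robust) in R 4.3.3, with group and sex as terms. Genotype and age were fitted over the AL-fed samples, diet and genotype on DR over those of 22 weeks, and sex over all 28. Interactions were called by adjusted p alone. Counts were scaled by TMM (factors 0.935 to 1.07) to a library of 3683502, the mean size, and are called normalized counts. Group means of single genes were compared by exact permutation tests, all two-sided. The procedure was tested on simulated data. Exon lengths and positions came from GENCODE. log2 CPM used a prior count of 2.

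The IGF genes and the lists were chosen with earlier results of these data known, and the sex comparison after its values were seen. Every IGF gene is named, of the other IGF lists the genes called at 22 weeks on AL between genotypes or with diet (at most 5 per list and comparison), the 3 genes most like each IGF gene, and Ercc1. Irs2, Ghr, Igfbp1, Pappa, Pappa2, H19, Igf2bp2, Airn, Pgpep1l, Gm72292, Col3a1, Col1a2, Col1a1, Pi16, Cd34, Ly6a, Mertk, Polr2b and Gm49394 were named after their values were seen. The alternatives were DESeq2 1.42.0, RLE size factors, sample 003 added, no low-count filter, all 6 or only the compared groups in the fit, no sex term, thinning to the smallest library, and each sample left out in turn. Each mouse gave 1 sample, so p-values cover the spread between mice.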

Additional observations from a re-analysis of the deposited data

Results flagged for a closer look

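Of 54 sets of an IGF gene in a group, 3 held a sample set apart from the others by Dixon's test, while chance gives about 1 in 20, or 2.7. Igfbp6 was 498 normalized counts in sample 011 (WT, 6 weeks, AL) and 111 to 222 in the other 4 of its group. In sample 020 (WT, 22 weeks, AL) Igfbp6 was 361, with 170 to 185 in the other 3. Igf2r was 409 in sample 028 (WT, DR), below 510 to 543 in the other 4. The mesothelial sums of samples 011 and 020, at 1322 and 638 normalized counts, were the highest of their groups.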

How the results depend on the processing

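Calls of Igfbp4 between genotypes on DR and of Igfbp2 with sex held in all alternatives run. The number of IGF genes called between genotypes on DR went from 2 to 1 (Igfbp4) with sample 003 added, without the sex term and after thinning, and ran from 1 to 3 with 1 sample left out. With age in Ercc1Δ/− mice it went from 2 to 1 (Igf1) without the sex term and to 0 after thinning, with 1 to 2 when 1 sample was left out. With age in WT mice it went from 0 to 1 (Igf1) with DESeq2, sample 003 added, all 6 groups or only the compared groups, and ran from 0 to 1 with 1 sample left out. With DR in Ercc1Δ/− mice it went from 1 to 0 with sample 003 added, all 6 groups and thinning, stayed at 1 with only the compared groups, where the gene was Igfbp2 in place of Igfbp4, and ran from 0 to 2 with 1 sample left out. The number in the sex comparison ran from 1 to 2 with 1 sample left out. All other comparisons stayed at 0 calls in each setting, and no call changed its direction. Apart from thinning, which lowers the counts, the cause of these changes was not tested. No paired analysis was possible because each mouse gave 1 sample and no sample number is shared between groups. Depth limits Igf2, with 0 to 6 reads in a sample, and Igfbp3, with 1 to 82.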

Other observations

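H19, the imprinted RNA beside Igf2, had too few reads to be tested across genes. It had 0 to 35 reads in a sample. Its group means ran from 4.47 normalized counts in WT mice of 6 weeks to 23.2 in AL-fed Ercc1Δ/− mice of that age. H19 was named after its values were seen, and no difference between groups was tested. Igf2bp2, which encodes a protein that binds Igf2 RNA, had means of 20.6 and 21.5 normalized counts on AL and 34.9 and 50.0 on DR in WT and Ercc1Δ/− mice of 22 weeks. It was not called by edgeR in any comparison, while DESeq2 called it with DR in Ercc1Δ/− mice.

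On DR several of the other IGF genes differed between genotypes. Irs1 (log2 fold change -0.64), Akt2 (-0.28), Rras (-0.55), Srf (-0.58) and Htra1 (-0.45) were lower in Ercc1Δ/− mice, together with Bcl6 (-0.46). Stc1 (1.04), an inhibitor of PAPP-A, Socs3 (0.70), Tsc1 (0.38), Sesn1 (0.53), Foxo3 (0.48) and Mest (1.56) were higher. These were named after their values were seen.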
